A study of Mus musculus with 1989 samples.

Results

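DN-like thymocytes were selected on measured RNA values as the 80 cells with the highest mean deposited log2 value over 5 genes, Il2ra, Myl10, Plac8, Tcrg-C1 and Tcrg-C2, out of 1993 cells in 1 droplet-based scRNA-seq library of mouse thymus. The members were 4.01% of the cells and were compared with the 1913 other cells. The thymus came from male C57BL/6 mice, an inbred strain, aged 7 weeks by the labels, with no treatment or engineered allele named. In a separate experiment, open chromatin was profiled in single cells of the same strain, of which 182 cells sorted as DN and 125 sorted as DP were used here, with 119 CD4 sorted and 116 CD8 sorted cells beside them. In neither experiment do the labels tie cells to animals, so the library and each sort counted as 1 sample. No test was run, SDs are spreads over cells, and intervals cover counting error at most.

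Double-negative (DN) thymocytes carry neither CD4 nor CD8 and are the earliest T cell precursors in the thymus. Notch signals from the stroma commit them to the T lineage, the IL-2 receptor alpha chain (Il2ra, CD25) marks their middle stages, and the genes of the beta, gamma and delta chains of the T cell receptor are rearranged there. A rearranged beta chain pairs with the invariant pre-T alpha chain (Ptcra), and this pre-TCR drives division and passage through the immature single-positive (ISP) stage to the double-positive (DP) stage, where CD4 and CD8 are both present. Cells with gamma and delta chains leave this path and form a separate lineage.

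The score that chose the members fell smoothly and had no gap at the limit. It was 4.07 in the highest cell and 2.46 at rank 40. The last member had 1.44 and the first cell outside had 1.41, and the cell at rank 100 had 0.991. All 5 genes were above 0 in 55 of the 80 members, 4 in 21 and 3 in 4. The other cells with all 5 genes above 0 numbered 4.

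**Figure D1:**
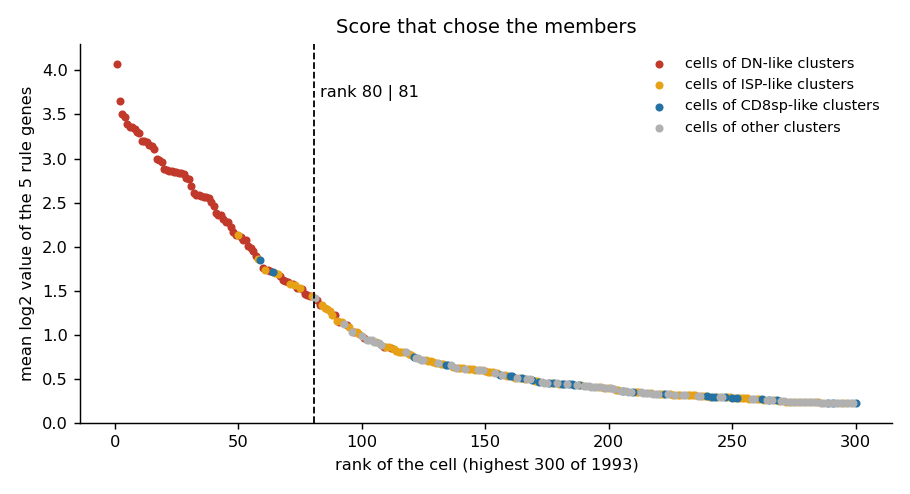
Mean log2 value of the 5 genes of the rule (vertical axis) for the 300 highest-scoring cells, ordered by rank (horizontal axis) and coloured by the cluster they fell into. The dashed line lies between rank 80 and rank 81, where the score passes from 1.44 to 1.41 without a step.

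The values of the 5 genes describe the choice and support nothing. Plac8, a small cysteine-rich protein, had a mean of 3.11 ± 1.38 (SD over 80 cells) in members and 0.21 ± 0.60 in other cells. Tcrg-C2, a constant gene of the gamma chain, had 2.57 ± 1.13 and 0.06 ± 0.29. Myl10, a myosin light chain, had 2.51 ± 1.21 and 0.09 ± 0.28. Tcrg-C1 had 2.37 ± 1.08 and 0.06 ± 0.26. Il2ra had the lowest level of the 5 in members, 1.55 ± 1.03 against 0.02 ± 0.13, and was above 0 in 67 members. The transcripts of Tcrg-C1 and Tcrg-C2 were 96.1% identical, with an identical run of 104 bases, and each was over 97% identical to that of Tcrg-C3, so reads of these genes may have been split or lost. Tcrg-C4 was 81.7% identical to Tcrg-C1, with no identical run longer than 29 bases.

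The name was checked on genes outside the rule. A value above 0 can be a single read, and free RNA in the droplets gives such reads to every cell. Shares of cells are therefore also given after each cell was thinned to 1300 steps, where steps are counted within each cell by numbering its different values from the lowest up and stand in for read counts, and are set beside the 36 APC-like cells, most of whose T cell gene reads should be background, although some dendritic cells carry CD8 alpha or CD4 themselves. The members had a median of 3706.5 steps, the APC-like cells 2407.5 and the other cells 2494. Cd8a was above 0 in 37.5% of members after thinning and in 38.9% of APC-like cells, Cd8b1 in 48.8% and 58.3%, and Cd4 in 8.75% and 11.1%. The coreceptor shares of members were thus no higher than those of APC-like cells, as was that of Trac, the constant gene of the alpha chain, with 17.5% against 19.4%, and no cells surely free of coreceptor RNA were at hand. Ptcra was above 0 in 36.2% of members after thinning (exact 95% interval 25.8% to 47.8%) and in no APC-like cell.

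Clustering of all cells gave 17 clusters, and 69 of the 80 members lay in 1 cluster of 78 cells, named DN-like because the 5 rule genes were all among its 10 leading genes. The clustering read those same genes, so this overlap restates the choice and is no check of the name. Of the other 11 members, 9 lay in ISP-like clusters and 2 in the CD8sp-like cluster, which had none of its fixed markers among its 10 leading genes. The 9 members in ISP-like clusters had a mean Mki67, a marker of dividing cells, of 1.00 ± 0.90, against 0.17 ± 0.44 in the 69. Their Myl10 was 0.99 ± 0.43 against 2.78 ± 1.06. The 2 members in the CD8sp-like cluster had Trdc, the constant gene of the delta chain, at 4.38 and 3.52 and Nkg7, a cytotoxic granule protein, at 2.00 and 2.75 in the same order, with Myl10, Ptcra and Hes1 at 0 in both. The 9 cells of the DN-like cluster that were not members had Tcrg-C4 at 0.30 ± 0.60, against 1.20 ± 1.10 in the 69 members, whereas their Cdk6 was 3.30 ± 0.77.

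Of 6797 genes above 0 in at least 10% of members or of other cells, 100 (1.47%) had a mean at least 0.5 higher in members on the log2 scale and 31 (0.456%) had a mean at least 0.5 lower. The 100 include the 5 genes of the rule. The median difference over all genes was 0.00. Members had a median of 1993 detected genes and other cells 1455. With the other cells limited to those whose number of detected genes lay between the 10th and 90th percentile of that of members, 82 genes were higher, 76 of them among the 100, and 118 were lower, 23 of them among the 31. These other cells had a median of 2205 detected genes, and the limit also changes which classes they come from, so depth and class cannot be told apart in these counts.

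The largest difference outside the rule was that of Crip1, a small LIM-domain protein. Its value in members ranged from 2.15 to 6.14 with a median of 4.94, and its mean was 4.78 ± 0.84 against 2.20 ± 1.31 in other cells. Every member had Crip1 above 0, but the ranges overlapped, since the highest other cell also had 6.14. Cdk6, a kinase that works with D-type cyclins at entry into the cell cycle, ranged from 0 to 4.52 in members with a median of 2.41. It had a mean of 2.28 ± 1.16 against 0.22 ± 0.51, and 83.8% of members had it after thinning against 11.7% of other cells and 5.56% of APC-like cells. Ppt1, a lysosomal thioesterase, had 1.85 ± 1.23 against 0.39 ± 0.61. B2m, the light chain of MHC class I, had 3.57 ± 0.69 against 2.14 ± 1.35 and was above 1 in every member. Next came Ly6d, a surface protein of early lymphoid cells, with a difference of 1.32, then the noncoding RNA Gas5, at 3.17 ± 0.76 against 1.86 ± 1.07, and Cmtm7, at 2.14 ± 0.92 against 0.84 ± 0.80. The heat-stable antigen Cd24a, high on immature thymocytes, was higher by 0.94.

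**Figure D2:**
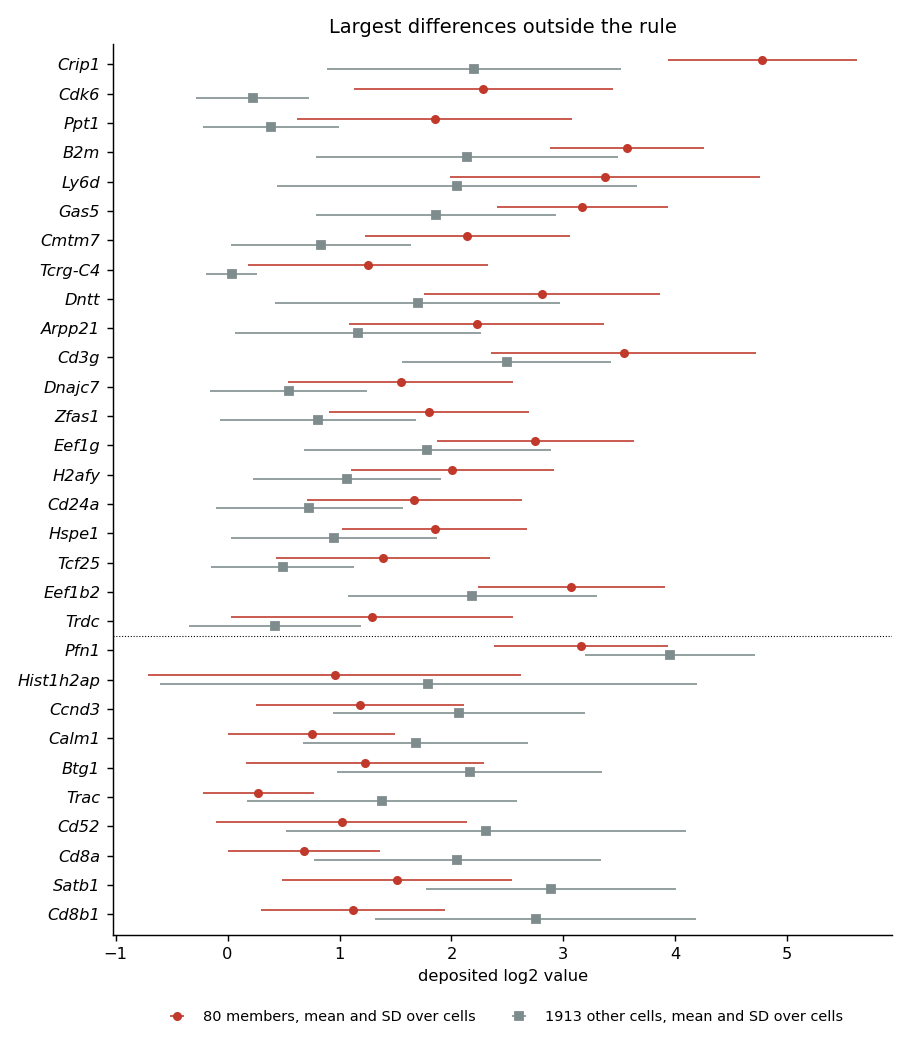
Mean deposited log2 value (horizontal axis) of the 20 genes with the largest positive and the 10 genes with the largest negative difference outside the rule, in the 80 members (circles) and the 1913 other cells (squares). Bars are SDs over cells. Crip1 lies at 4.78 in members and 2.20 in other cells, and Cd8b1 at 1.12 and 2.75.

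The genes furthest below other cells were Cd8b1, Satb1 and Cd8a. Cd8b1, the CD8 beta chain, had 1.12 ± 0.82 in members and 2.75 ± 1.43 in other cells, and Cd8a, the alpha chain, had 0.69 ± 0.68 and 2.05 ± 1.28. Cd4 had 0.15 ± 0.33 and 0.62 ± 0.78, a difference of -0.46 that stayed under the size rule. Satb1, a chromatin organizer, had 1.51 ± 1.03 and 2.89 ± 1.12. Trac was at 0.28 ± 0.49 against 1.38 ± 1.20, with a median of 0 in members. Trbc2, the beta-chain constant gene, was lower by 0.64, although every member had it above 0. Cd52, a surface glycoprotein of lymphocytes, was lower by 1.29, and the cyclin Ccnd3 by 0.89.

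Of the Notch receptors and their signalling proteins, 1 of 13 genes tested was higher and none was lower, with a median difference of 0.01. That gene was Notch1, which ranged from 0 to 3.08 in members with a median of 0.59 and had a mean of 0.93 ± 0.90 against 0.17 ± 0.38. After thinning it was above 0 in 36.2% of members, 9.30% of other cells and 5.56% of APC-like cells. Notch3 had 0.28 ± 0.48 against 0.02 ± 0.13, a difference of 0.26. Rbpj, the DNA-binding partner of Notch, had 0.13 ± 0.33 against 0.09 ± 0.27.

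Of 9 Notch target genes tested besides Il2ra, 2 were higher and none lower, and their median difference was 0.11. Hes1, a repressor switched on by Notch, ranged from 0 to 2.85 in members with a median of 0.23. Its mean was 0.70 ± 0.92 against 0.02 ± 0.16, and it was above 0 in 57.5% of members (exact 95% interval 45.9% to 68.5%) and 2.35% of other cells. After thinning the shares were 28.8% and 1.05%, and 2.78% in APC-like cells. Ptcra was the other, with 0.76 ± 0.91 against 0.17 ± 0.42, a range of 0 to 2.90 and a median of 0.32. The other targets differed less. Myc was at 0.33 ± 0.53 against 0.11 ± 0.35, Cdkn1a, an inhibitor of cyclin-dependent kinases, at 0.19 ± 0.46 against 0.01 ± 0.12, Dtx1 at 0.09 ± 0.28 against 0.04 ± 0.20, Igf1r at 0.12 ± 0.33 against 0.04 ± 0.17, and Gata3 at 0.41 ± 0.57 against 0.30 ± 0.55. Hes6 differed by 0.04 and Nrarp by 0.00. Tcf7, an early T-lineage factor, had 1.63 ± 0.92 in members and 2.11 ± 1.06 in other cells.

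The promoters of Il2ra and Ptcra are shown because both genes are Notch targets that marked members, and that of Plac8 because it had the highest level of the rule genes. They are RefSeq sequences of the GRCm38.p6 build, 300 bases around the gene start on the gene's strand, at chr2:11642542-11642841 for Il2ra, chr17:46763663-46763962 for Ptcra and chr5:100572156-100572455 for Plac8. Capitals mark matches, on either strand, to TGTGGT (Runx), CAGCTG (E-box), TGGGAA (RBPJ) and TTCNNNGAA (Stat).
Il2ra: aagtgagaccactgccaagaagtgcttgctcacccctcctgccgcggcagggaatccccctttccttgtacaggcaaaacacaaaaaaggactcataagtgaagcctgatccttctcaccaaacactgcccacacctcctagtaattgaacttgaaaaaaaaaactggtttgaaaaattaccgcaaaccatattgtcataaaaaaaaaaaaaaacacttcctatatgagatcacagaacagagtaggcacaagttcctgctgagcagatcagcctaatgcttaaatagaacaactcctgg
Ptcra: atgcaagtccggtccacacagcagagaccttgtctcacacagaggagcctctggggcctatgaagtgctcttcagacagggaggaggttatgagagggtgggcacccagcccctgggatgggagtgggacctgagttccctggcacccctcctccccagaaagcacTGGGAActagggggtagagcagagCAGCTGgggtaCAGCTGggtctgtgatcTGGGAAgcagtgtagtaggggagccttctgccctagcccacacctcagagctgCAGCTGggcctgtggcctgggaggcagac
Plac8: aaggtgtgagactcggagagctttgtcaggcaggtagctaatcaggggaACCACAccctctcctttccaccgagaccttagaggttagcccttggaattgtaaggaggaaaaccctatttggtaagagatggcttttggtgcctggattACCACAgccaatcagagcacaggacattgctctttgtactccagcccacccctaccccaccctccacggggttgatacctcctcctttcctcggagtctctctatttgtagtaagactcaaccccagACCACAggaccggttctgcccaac
The Ptcra promoter held 3 E-box and 2 RBPJ matches, the Plac8 promoter 3 Runx matches and the Il2ra promoter no match. Of 32851 RefSeq promoters of this length, 16.8% held the Runx letters, 16.3% the E-box, 25.6% the RBPJ letters and 8.30% the Stat letters, so single matches were common. Of the 100 higher genes, 68 had a promoter in this set. Hes1, Tcrg-C1 and Tcrg-C2 were not among them.

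Among the gamma and delta chain genes, besides the 2 genes of the rule, the 2 others tested were both higher, and their median difference was 1.04. Tcrg-C4 ranged from 0 to 3.38 in members with a median of 1.25, and had a mean of 1.25 ± 1.07 against 0.04 ± 0.23. After thinning it was above 0 in 52.5% of members, 2.51% of other cells and 2.78% of APC-like cells. Trdc ranged from 0 to 4.38 with a median of 0.94, and had 1.29 ± 1.26 against 0.43 ± 0.77, with thinned shares of 45.0%, 18.5% and 8.33%. Trgv2, a variable gene of the gamma chain, was above 0 in 37.5% of members and 1.67% of other cells before thinning. The delta variable genes Trdv1, Trdv2-2 and Trdv5 were above 0 in 0%, 3.75% and 2.50% of members, also before thinning, with an exact 95% interval up to 4.51% for the first. None of these 3 differed by more than 0.02.

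Among pre-TCR and CD3 chains, 2 of 8 genes were higher and 2 lower, with a median difference of 0.10. Cd3g, a signalling chain of the receptor complex, had 3.54 ± 1.19 against 2.49 ± 0.93, and Ptcra was the other higher gene. Trac and Trbc2 were the lower ones. None of 21 proximal TCR signalling genes moved by 0.5. Rhoh, Lck and Lat were at 1.82, 2.84 and 2.58 in members and at 1.36, 2.41 and 2.18 in other cells, while Rasgrp1, an activator of Ras, was at 0.24 against 0.61.

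Of 9 recombination and end-joining genes, Dntt was higher and Hmgb2 lower. Dntt, the transferase that adds bases at the joints of rearranged genes, had 2.81 ± 1.05 against 1.70 ± 1.27. Rag1, a subunit of the recombinase, had 1.01 ± 0.97 against 0.93 ± 1.05, and Rag2 had 0.19 ± 0.39 against 0.25 ± 0.48. The end-joining genes Xrcc4, Xrcc5, Lig4, Dclre1c, Prkdc and Nhej1 were each below 0.2 in both groups, Xrcc6 had 0.96 ± 0.80 against 0.69 ± 0.79, and Atm had 0.10 ± 0.30 against 0.03 ± 0.14. Hmgb1 was at 3.46 ± 0.95 against 3.74 ± 1.40.

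Among 26 regulators of the DN3 stage, 6 were higher and 2 lower, and the median difference was 0.04. Besides Cdk6, the higher genes were Ccnd2, a D-type cyclin, at 1.27 ± 0.98 against 0.47 ± 0.95, Bcl11b, a T-lineage commitment factor, at 2.30 ± 1.03 against 1.69 ± 1.09, and Myb, Patz1 and Runx1 with differences of 0.68, 0.56 and 0.55. Satb1 and Ccnd3 were the lower ones, so the 2 D-type cyclins differed in opposite directions. None of 5 genes for E proteins and their Id inhibitors reached 0.5. The E proteins Tcf3, Tcf4 and Tcf12 were at 0.52, 0.27 and 0.93 in members and 0.32, 0.11 and 0.69 in other cells. The inhibitors Id2 and Id3 were at 0.10 and 0.29 in members and at 0.32 and 0.74 in other cells, and Lyl1 was near 0 in both.

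Of 14 genes of the IL-7 receptor pathway and survival, Bcl2, which protects from cell death, was the 1 higher gene, at 1.11 ± 1.09 against 0.54 ± 0.98. Il7r was above 0 in 35.0% of members and 13.2% of other cells, but after thinning in 7.50% and 7.89%, a difference not detectable at this depth. None of 13 beta-selection and growth genes was higher, and Cd2 and Cd28, surface receptors of T cells, were lower by 0.71 and 0.70. None of 40 S phase genes differed by 0.5, and of 48 G2 and M phase genes 1, Hmgb2, was lower. Ube2c, of the second group, was at 0.45 ± 0.73 in members and 0.88 ± 1.27 in other cells. Among migration and adhesion genes, the surface protein Cd47 was higher by 0.57 and the chemokine receptor Ccr9 was lower by 0.54.

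Markers of other cells were examined because the rule does not exclude them. None of 11 antigen-presenting and myeloid genes tested differed by 0.5, the median difference was -0.06, and the mean over the list ran from 0 to 0.33 in members and from 0 to 3.77 in other cells. The 3 erythroid genes in the table were not above 0 in 10% of either group. Of 10 early progenitor genes in the table, 3 were tested and none differed by 0.5, with Lmo4, Ly6a, Bcl11a and Hhex at 0.15, 0.17, 0.05 and 0.03 in members. Among 8 B cell and plasmacytoid genes tested, Ly6d and Bst2 were higher and Ccr9 lower, 4 of the 18 genes in the table were at 0 in every member, and Ighm was at 0.70 in members and 1.14 in other cells. None of 3 thymic stromal genes tested differed by 0.5, with a median difference of 0.09, and the furthest apart was Epcam, an epithelial adhesion molecule, at 0.31 ± 0.52 against 0.02 ± 0.13. Of 12 innate-like and gamma delta T cell genes tested, 3 were higher, Tcrg-C4, Trdc and the transcript AW112010, and 6 of the 26 in the table were at 0 in every member.

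The 10 genes whose values followed the rule score most closely over all 1993 cells, with Pearson coefficients given as a description, were led by Tcrg-C4 (0.64), Cdk6 (0.62) and Gm5111 (0.60). Khdc1a (0.53) and Hes1 (0.50) came next, with Tshz2, Trgv2, Ifitm2, Hdac4 and Tmem121 completing the 10. The cells share 1 library, and depth is common to all genes of a cell. These genes were picked by the score that chose the members, so their higher values in members restate the choice. Before thinning, Gm5111 was above 0 in 51.2% of members and 0.575% of other cells, Khdc1a in 42.5% and 0.575%, and Tshz2 in 33.8% and 0.575%. Members were deeper, and thinned shares of these genes are not given. Hdac4, a histone deacetylase, had 0.73 ± 0.86 against 0.05 ± 0.21, and Ifitm2, an interferon-induced membrane protein, 0.43 ± 0.60 against 0.02 ± 0.14.

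Members were then set beside 3 classes of rebuilt clusters. Against 305 ISP-like cells, which had a median of 2833 detected genes, 68 of 7543 genes tested (0.901%) were higher in members and 207 (2.74%) lower. None of the 10 leading genes of the ISP-like clusters was among their fixed markers, so the name rests on mean marker scores. The largest of these clusters, with 151 cells, scored 0.25 for ISP markers and 0.17 for those of DP blasts, so the names were barely apart there. The others scored 0.54 against -0.27 and 0.75 against 0.48. Cdk6 led the higher genes outside the rule, with 2.28 in members and 0.61 ± 0.72 in ISP-like cells, followed by B2m (3.57 and 1.93), Malat1 (6.66 and 5.04), Ppt1 (1.85 and 0.26) and Crip1 (4.78 and 3.31). The lower genes were led by the chromatin and replication genes Hmgb2 (1.98 and 4.69), Hist1h2ap (0.96 and 3.30), Pclaf (0.68 and 3.01), H2afz (2.62 and 4.73) and Ptma (4.62 and 6.62). Hes1 was at 0.03 ± 0.18 in ISP-like cells, Notch1 at 0.31 ± 0.48, and Ptcra at 0.39 ± 0.59. Trdc was at 0.90 ± 0.83, so it differed from members by less than either SD.

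Against 375 DPre-like cells, DP cells with high Rag1 and shallower than members, 179 of 6677 genes (2.68%) were higher in members and 58 (0.869%) lower. Crip1 (4.78 and 1.39), B2m (3.57 and 1.35), Cdk6 (2.28 and 0.11) and the elongation factor subunits Eef1g (2.75 and 1.09) and Eef1b2 (3.07 and 1.42) led the higher genes. Cd8b1 (1.12 and 4.25), Cd8a (0.69 and 3.02), Satb1 (1.51 and 3.50), Gm4258 (1.20 and 3.07) and the tubulin Tubb2b (0.18 and 1.79) led the lower ones. Dntt was at 2.60 ± 1.13 in these cells and Rag1 at 1.98 ± 1.17.

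Against 31 NCL-like cells, the nonconventional lymphocytes of the study, 183 of 6858 genes (2.67%) were higher in members and 95 (1.39%) lower. Ly6d, Dntt, Crip1, Cdk6 and Bcl11b led the higher genes, with NCL-like means of 0.57, 0.43, 2.53, 0.06 and 0.34. Cd52, Id2, Tmsb10, AW112010 and Nkg7 led the lower ones, with NCL-like means of 4.29, 3.37, 5.35, 3.51 and 2.97. Tcrg-C4 was at 0.50 ± 0.84 in NCL-like cells and 1.25 ± 1.07 in members. Nkg7, in turn, was above 0 in 28.8% of members after thinning (exact 95% interval 19.2% to 40.0%), against 87.1% of NCL-like, 2.30% of ISP-like and 2.78% of APC-like cells.

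**Figure D3:**
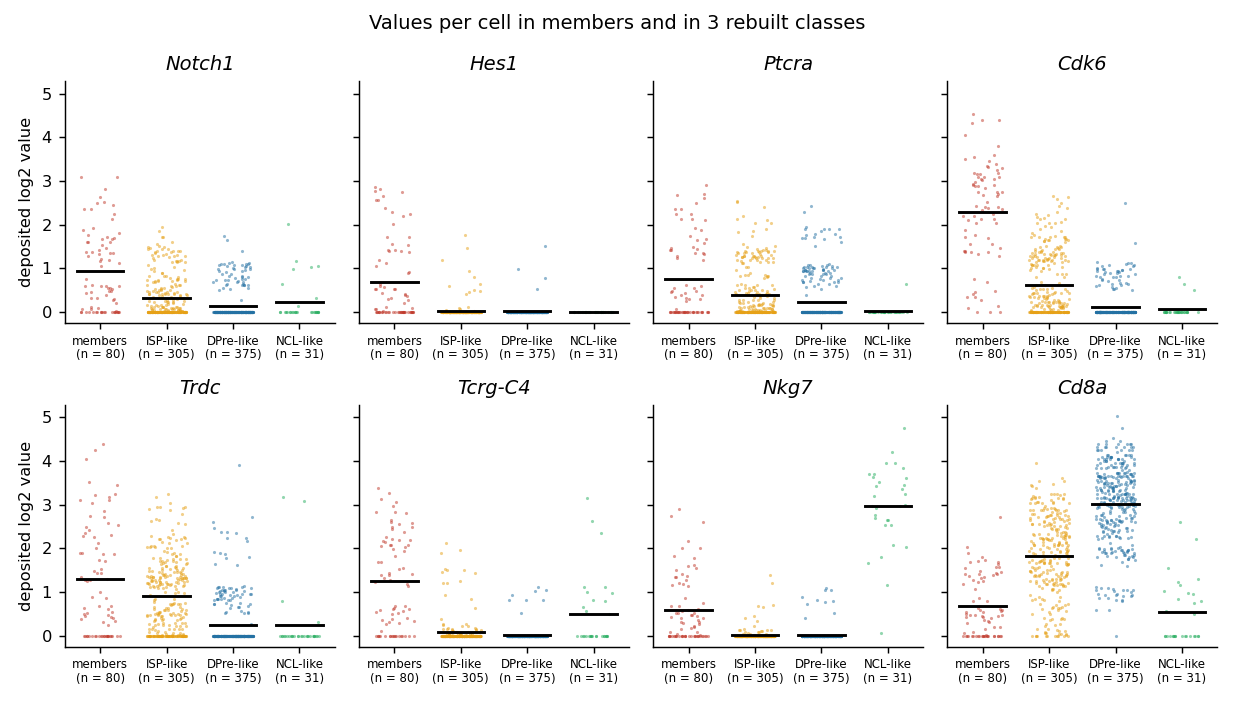
Deposited log2 value of 8 genes in each cell (points) of the members and of the ISP-like, DPre-like and NCL-like classes, with the mean as a black line. Hes1 and Cdk6 are high in members only among these 4 groups, with means of 0.70 and 2.28, and Nkg7 lies at 0.59 in members between 0.02 in ISP-like and 2.97 in NCL-like cells.

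Members varied among themselves. Il2ra was above 0 in 67 members and at 0 in 13, and 9 of the 13 lay in the DN-like cluster. Of 7102 genes tested between these groups, 16 (0.225%) were higher with Il2ra and 25 (0.352%) lower. Ccnd2 was at 1.39 ± 0.99 where Il2ra was above 0 and 0.65 ± 0.62 where it was at 0. Myl10 was at 2.62 against 1.94, Ly6d at 3.48 against 2.82 and Cd47 at 2.06 against 1.43. Ccr9 went the other way, with 0.59 ± 0.75 against 1.34 ± 0.96, as did Snhg6, Gnas, Cd52, Hmgb2 and Ran, by 0.73, 0.71, 0.69, 0.68 and 0.65. Hes1 was at 0.78 ± 0.96 with Il2ra and 0.27 ± 0.49 without. Il2ra and Myl10 are both genes of the rule, and a member with Il2ra at 0 had to pass on the other 4, so these values are a description shaped by the choice. Each of these differences was smaller than the SD over cells of at least 1 of the groups, so the values overlapped widely.

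A split by Ptcra was chosen after the values were seen. Ptcra was above 0 in 45 members, with a median of 1887 detected genes, and at 0 in 35, with 2230. Of 7120 genes, 18 (0.253%) were higher with Ptcra and 34 (0.478%) lower. Trdc was at 0.65 ± 0.93 in members with Ptcra and 2.12 ± 1.14 in those without. Of the 35 members without Ptcra, 33 had Trdc above 0, against 24 of the 45 with Ptcra. After thinning all cells to the same number of steps, 28.9% of the 45 and 65.7% of the 35 had Trdc. With Ptcra also read from the thinned values the contrast was smaller, and 34.5% of 29 members with Ptcra and 51.0% of 51 without had Trdc. Plac8 was at 2.58 ± 1.39 with Ptcra and 3.78 ± 1.05 without, and Lgals1, a galectin, at 1.49 ± 1.20 and 2.72 ± 1.17. Plac8 is a gene of the rule, so its values here are shaped by the choice of members. The chains of the receptor complex went the other way, with Cd3d at 3.58 ± 0.86 against 2.22 ± 1.22 and Cd3g at 3.91 ± 0.86 against 3.06 ± 1.38. Rag1 was at 1.32 ± 1.08 with Ptcra and 0.61 ± 0.65 without, and Bcl2 at 0.86 ± 0.99 and 1.43 ± 1.14. Ppt1 and Ly6d were higher with Ptcra by 0.87 and 1.06, and H2afy, Hmgb2 and Tmsb10 lower by 0.80, 0.91 and 1.09.

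Across the 80 members, Ptcra and Trdc had a Pearson coefficient of -0.53 and a Spearman coefficient of -0.62, and Pearson's was -0.49 within the 69 members of the DN-like cluster. Ptcra and Plac8 had -0.55, Ptcra and Rag1 0.49, and Plac8 and Trdc 0.48. These are descriptions over cells of 1 library, which share their depth: Ptcra had a coefficient of -0.35 with the number of detected genes, and Trdc one of 0.23. The part of depth was looked at by thinning for Ptcra and Trdc only, and not for the other pairs. Plac8 is a gene of the rule, so its coefficients are also shaped by the choice of members. Hes1 did not follow Ptcra, with a coefficient of -0.01, nor Notch1, with 0.02.

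**Figure D4:**
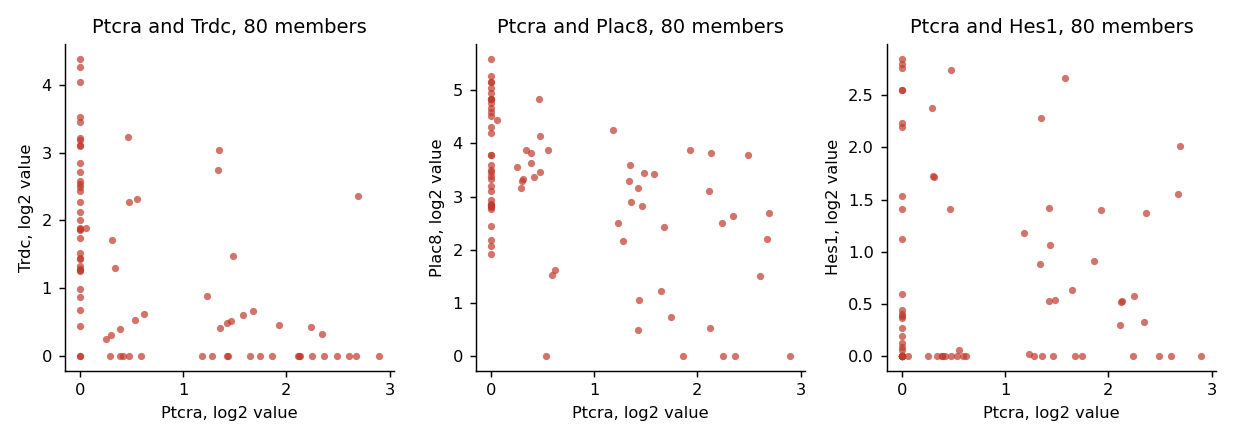
Ptcra log2 value (horizontal axis) against that of Trdc, Plac8 and Hes1 (vertical axes) in the 80 members, 1 point a cell. High Trdc values lie mostly at Ptcra of 0, where the mean was 2.12 against 0.65 elsewhere, whereas Hes1 is spread over both, with means of 0.71 and 0.68.

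Open chromatin was measured in other cells and was not used by the rule. DN sorted cells had 1108749 counts in peaks in all and DP sorted cells 478264, with medians of 3377.5 and 3866 per cell. Sums are given per 10000 counts in peaks with exact Poisson 95% intervals. Of 138317 peaks, 85240 overlapped the one before, so 1 fragment can be counted more than once in a sum, and counts cluster in cells. Intervals on such sums are likely too narrow even for counting error, and whether they overlap is a description. A sort may hold more than thymocyte precursors: the region within 2 kb of the start of Cd74, an antigen-presentation gene, had 59 counts in DN and 6 in DP sorted cells, 0.532 and 0.125 per 10000. CD4 sorted cells had 0.520 and CD8 sorted cells 0.0606 per 10000, so this was not particular to the DN sort. The part of other cell types in the ratios was not tested. Over 7458 genes with at least 20 counts near their start, 18.2% were at least 1.5 times higher in DN sorted cells and 15.2% at least 1.5 times lower, with a median log2 ratio, computed with 0.5 added to each count, of -0.02. Of the 95 genes higher in members outside the rule, 76 had enough counts, of which 15 were higher and 8 lower, with a median of 0.07. Of the 31 lower genes, 27 had enough counts, of which 2 were higher and 12 lower, with a median of -0.45. The share of higher genes with more open starts in DN sorted cells, 19.7%, was near the background, whereas that of lower genes with less open starts was 44.4% against 15.2%. With only the cells of label numbers from 31000, in both sorts, the second pair was 33.3% and 29.6%, and with those from 4000 it was 55.6% and 23.3%. Higher genes with more open starts were 44.7% against 35.5% of all genes with numbers from 31000, and 30.3% against 23.8% with those from 4000. In the latter the median log2 ratio of higher genes was 0.15, against -0.0070 for all genes.

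The start of Hes1 had 41 counts in DN sorted cells, 0.370 per 10000 (0.265 to 0.502), and 5 in DP sorted cells, 0.105 (0.0339 to 0.244), and the intervals did not overlap. The sorts share few label blocks, however, and 15 and 11 of the 41 counts came from DN cells of label numbers from 1000 and 2000, where no DP sorted cell lay. Within the numbers from 4000, which hold both sorts, Hes1 had 5 counts in DN, 0.231 per 10000 (0.0751 to 0.540), and 4 in DP sorted cells, 0.145 (0.0394 to 0.370), and the intervals overlapped. Notch1 had 18 and 2 counts, 0.162 (0.0962 to 0.257) and 0.0418 (0.00506 to 0.151), and its intervals overlapped. The 18 counts came from 9 cells, 5 of them from 1 cell. Ccnd2 had 113 and 13 counts, with a log2 ratio of 1.86, and 1.06 and 0.434 per 10000 within the numbers from 4000, with overlapping intervals. Ptcra, in contrast, had 23 and 11 counts, 0.207 and 0.230 per 10000, and its intervals overlapped, as did those of Il2ra with 16 and 4 counts. Cd8a had 29 and 62 counts, with intervals of 0.175 to 0.376 and 0.994 to 1.66 per 10000, Cd4 had 9 and 29, and Rag1 had 84 and 137. Rag1 RNA did not differ by 0.5 between members and all other cells, but was lower in members than in DPre-like cells. Within the numbers from 4000 the intervals of Cd8a, Cd4 and Rag1 did not overlap. The numbers from 31000 also hold both sorts, with few counts, and there Cd8a had 4 in DN and 1 in DP sorted cells, the other direction, Cd4 had 0 in both, and Rag1 had 0 and 9. Dntt RNA was higher in members than in all other cells, but differed from that of DPre-like cells by less than either SD. The start of Dntt had 85 and 80 counts, a log2 ratio of -1.13, with overlapping intervals within the numbers from 4000. Cdk6 had 0.469 per 10000 in DN and 1.84 in DP sorted cells, but 52 of its 88 counts in DP sorted cells came from 1 cell, and 0.763 per 10000 remained without it. Its direction was not stable, with 0.555 and 0.687 and overlapping intervals within the numbers from 4000, and 0.541 and 0.372 within those from 31000.

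Starts with counts in DN but none in DP sorted cells included those of Il7r, Nkg7 and Trgv2. The share of all starts with this pattern was not counted, and DN sorted cells had more counts in peaks in all, so the pattern is not shown to be particular to these genes. Il7r had 70 counts in 24 of 182 DN sorted cells and 0 in DP sorted cells, where the upper bound was 0.0771 per 10000, and CD4 and CD8 sorted cells had 39 and 56, where 22 of the 56 came from 1 cell and 34 remained without it. Nkg7 had 22 counts in 17 DN sorted cells, 15 of them in the cells with label numbers from 32000, and 9 counts each in CD4 and CD8 sorted cells. Trgv2 had 42 counts in 15 DN sorted cells, but 25 of them came from 1 cell and 17 remained without it. Few of these counts lay in label numbers that hold both sorts. Within those from 4000, DN sorted cells had 8 counts of Il7r in 2 cells, 1 of Nkg7 and 6 of Trgv2. Within those from 31000 they had 9, 1 and 0.

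The gamma chain locus on chromosome 13 was looked at peak by peak after its RNA had been seen. The peak with the most counts in DN sorted cells around Tcrg-C2 was centred 6938 bases past the gene start, at chr13:19298614-19302613, and had 35 counts in 22 DN sorted cells, 0.316 per 10000 (0.220 to 0.439). It had 1 count in DP sorted cells, 0 in CD4 sorted and 1 in CD8 sorted. Its counts were uneven, with 16 and 15 of the 35 in the DN cells with label numbers from 1000 and 2000 and 0 in those from 32000. Near Tcrg-C1, the peak centred 5537 bases past the start, at chr13:19217641-19221640, had 17 counts in 14 DN sorted cells, 0.153 per 10000 (0.0893 to 0.245), 0 in DP sorted, 5 in CD4 sorted and 0 in CD8 sorted cells. Within the label numbers from 4000, which hold both sorts, the Tcrg-C2 peak had 3 counts and the Tcrg-C1 peak 4 in DN sorted cells, and both had 0 in DP sorted cells. Trdc on chromosome 14 had 60 counts in DN and 26 in DP sorted cells within 10 kb of its start, a log2 ratio of -0.02. Its single peaks were uneven. The peak with the most counts in DN sorted cells, centred 11770 bases past the start, had 56 in DN and 0 in DP sorted cells, but in 5 cells only, 4 of them with label numbers from 2000 and 54 of the counts. The peak centred 5784 bases past the start had 15 and 0, and an overlapping one, centred 4806 bases past it, had 16 and 9. Of 19385 peaks with at least 15 counts in DN sorted cells, 6.88% had at most 1 count in DP sorted cells, so this pattern was not particular to these loci. Peaks were 4000 bases wide and overlapped, so neighbouring peaks are not independent.

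**Figure D5:**
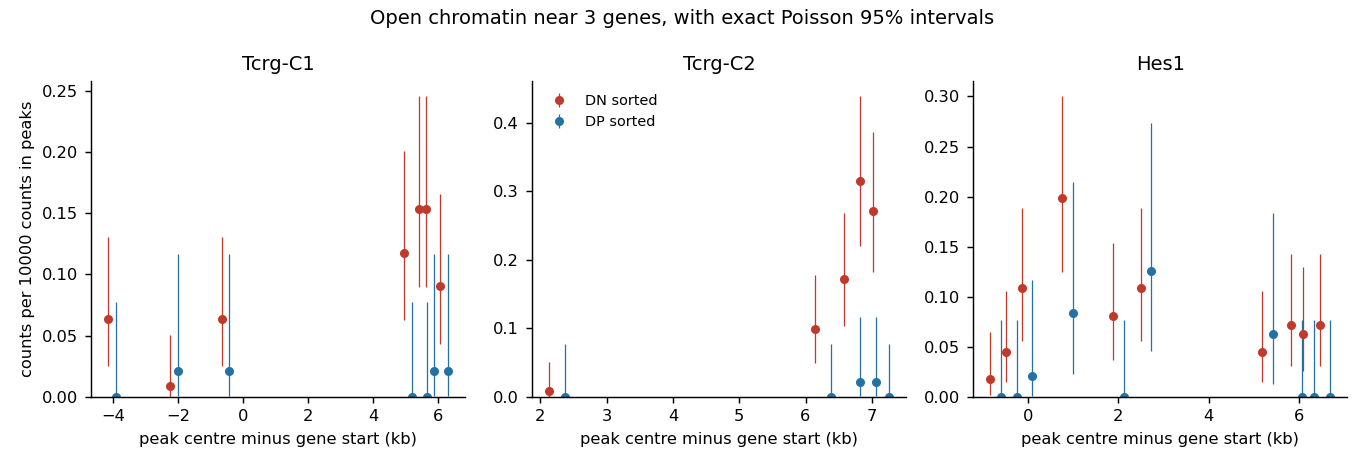
Counts per 10000 counts in peaks (vertical axis) in DN and DP sorted cells for each peak within 20 kb of Tcrg-C1, Tcrg-C2 and Hes1, by the distance of the peak centre from the gene start along the gene (horizontal axis, points of the 2 sorts shifted slightly apart). Bars are exact Poisson 95% intervals, and the peaks 5 to 7 kb past the starts of Tcrg-C1 and Tcrg-C2 are high in DN and near 0 in DP sorted cells.

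The 201 bases at the centres of these peaks are printed to show the sequence there. Counts exist only for whole peaks of 4000 bases, so the difference between the sorts is not placed within them. They are from the plus strand of GRCm38, at chr13:19219540-19219740 near Tcrg-C1 and chr13:19300513-19300713 near Tcrg-C2, with the same motifs in capitals.
Tcrg-C1: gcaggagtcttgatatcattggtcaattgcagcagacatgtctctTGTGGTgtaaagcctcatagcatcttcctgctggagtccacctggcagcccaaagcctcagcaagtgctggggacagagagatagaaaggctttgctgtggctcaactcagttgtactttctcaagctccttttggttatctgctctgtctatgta
Tcrg-C2: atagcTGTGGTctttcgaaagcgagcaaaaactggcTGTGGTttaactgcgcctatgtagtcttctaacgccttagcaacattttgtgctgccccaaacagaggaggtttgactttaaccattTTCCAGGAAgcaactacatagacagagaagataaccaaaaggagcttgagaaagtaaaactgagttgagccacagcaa
The first held 1 Runx match and the second 2 Runx matches and 1 Stat match. Of all 138317 peaks, 20.7% held the Runx letters and 5.36% the Stat letters in this window. Within 2001 bases around each centre, the regions were 93.6% identical over 1845 aligned bases, in opposite orientation, as the genes themselves lie on opposite strands. Reads from 1 region could therefore have been placed at the other or lost, and how the mapping treated them is not given in the sources used here.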

How the data were processed

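For scRNA-seq, the authors deposited log2 values, made by aligning to GRCm38.p5 in Cell Ranger 1.3.1, filtering genes and cells, and quantile-normalizing the cells. The table held 8846 genes, 13 of them mitochondrial, although the methods state their removal, and 79.7% of values were 0. Doublets were not called, and 7 cells with more than 4500 detected genes were kept. For scATAC-seq, the authors deposited counts by peak for each cell, from Bowtie2 alignments cleared of duplicates in Picard, over MACS2 peaks called on all cells merged. The build of these peaks was taken as GRCm38, since 22.5% of centres lay within 2 kb of a protein-coding start against 6.21% after a shift of 100000 bases and no peak passed a chromosome end. The labels name hg38 beside GRCm38.p5. A further 1446 columns of total or unassigned thymocytes were not used.

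Members, lists and named genes were chosen with earlier results of these data known. Genes above 0 in at least 10% of members or other cells were compared by mean difference, with 0.5 as the size rule. The text names the rule genes, the 20 largest higher and 10 largest lower genes, the 4 largest of each list, all genes of 5 short lists, the genes closest to the score and the leading genes of each split or class. Not every gene so chosen is discussed, and 1 is not reported here. Thinning kept 1300 steps per cell, which understates high genes. Clusters were made with Seurat 5.3.0 in R 4.3.3 (1306 variable genes, resolution 2) and named from fixed markers, where only clusters with Mki67 in at least 50% of cells could be ISP-like or DP blasts, a rule set after seeing the clusters. A cluster with more leading markers of another class than of its own was left unnamed. Peaks with a centre within 2 kb of a GENCODE vM21 start were summed per gene. Intervals are exact binomial or Poisson at 95%. Python 3.11 scripts with scipy and Biopython were tested on simulated data. Alternatives covered the rule, depth, filters and label blocks.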

Additional observations from a re-analysis of the deposited data

How the results depend on the processing

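No paired analysis was possible because the scRNA-seq table is 1 library and the labels name no animal for a cell. Under the alternatives to the rule (60 or 100 members, 1 rule gene left out, z scores) and to the cells kept, 82 to 110 genes were higher and, apart from the depth-limited comparison, 26 to 42 were lower. With other cells limited to the detected genes of members, 118 genes were lower and Tmsb10 turned from -0.70 to 0.061. Thinning gave 20 higher and 11 lower genes among 3197 tested, and a size rule of 1 gave 16 and 5. Leaving out the 11 members outside the DN-like cluster, chosen after seeing the data, gave 105 and 42. The median open chromatin ratio of higher genes was 0.07 and turned to -0.027, -0.10 and -0.0083 with only DN cells of label numbers from 1000, only those from 2000 and only DP cells from 3000, and was 0.28 with numbers from 31000 in both sorts. The median of all genes moved too, from -0.02 to -0.15, -0.06, 0.0019 and -0.07 in these 4 settings, so higher genes stayed above it in the first and last and lay below it in the others. They also lay below it with only DN cells from 32000, at 0.038 against 0.098. That of lower genes was -0.45, and was -0.16 with peaks within 10 kb, -0.26, -0.32 and -0.27 in the same 3 blocks, -0.78 with numbers from 4000 and -0.17 with those from 31000, where all genes had -0.07. The causes were not tested. Depth limits genes with few reads, for which an absent read does not show an absent transcript.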

Other observations

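Of the 13 mitochondrial genome genes, 5 were at least 0.5 higher in members, mt-Nd2 by 0.70, mt-Co2 by 0.58, mt-Nd3 by 0.54, mt-Co1 by 0.53 and mt-Cytb by 0.51, and none was lower. Among 24 cytoskeleton and motility genes outside the rule, Crip1 and S100a11 were higher, the second by 0.82, whereas Pfn1, Tmsb10, Coro1a, Tubb2b, Tmsb4x and Tuba1b were lower, by 0.79, 0.70, 0.65, 0.57, 0.53 and 0.51, of which Tmsb10 turned to 0.061 with other cells limited to the detected genes of members. Of 18 interferon response genes, Bst2 was higher by 0.80 and Ifi27l2a lower by 0.68. Of 17 double-positive stage genes, Dntt, Arpp21 and Aqp11 were higher, by 1.11, 1.06 and 0.51, and Cd8b1, Cd8a, Trac and Rmnd5a lower. With other cells limited to the detected genes of members, mt-Nd2, mt-Co2, mt-Co1, S100a11, Bst2, Dntt and Arpp21 were still at least 0.5 higher, mt-Nd3 differed by 0.45 and Ifi27l2a by -0.47.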
